A study of Mus musculus with 12 samples.

Results

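The 33 genes described here are transcripts of B lymphocytes and of the major histocompatibility complex (MHC) class II pathway, measured in libraries of mouse CD4+ T cells. They were taken by gene symbol, which found all 33 among the 17203 genes of the expression table, and all 33 reached the expression level needed for testing. The members comprise 6 genes of the B cell antigen receptor, 9 B cell surface or surface-associated molecules, 6 intracellular signalling proteins, 4 transcription regulators and 8 genes of the MHC class II pathway. RNA sequencing covered 12 libraries of helper (CD4+) T lymphocytes taken from C57BL/6 mice, in 4 groups of 3. Unstimulated libraries came from freshly isolated cells, and their descriptions read Naive_CD4. CD3 libraries came from cells activated for 72 h by anti-CD3 fixed to the plate, which engages the T cell receptor complex. CD3_CD28 libraries had, for the same 72 h, the plate-bound anti-CD3 plus anti-CD28 in solution, an antibody to a costimulatory receptor. CD3_CD28_ICOS libraries came from 72 h with soluble forms of anti-ICOS, anti-CD28 and anti-CD3, so the presentation of anti-CD3 changed together with the addition of anti-ICOS, an antibody to a further costimulatory receptor. The series title and design text name NFAT2 signalling and speak of transduced cells, but no label of a library gives a transduction, mutation or transgene, and none gives the mouse or culture behind a library, so the p-values measure only the spread between these libraries.

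B cells recognise antigen through a membrane immunoglobulin made of heavy and light chains, which signals through the paired proteins encoded by Cd79a and Cd79b. They also present antigen to CD4+ T cells as peptides on MHC class II, a task shared with dendritic cells and macrophages. Class II genes depend on the transactivator encoded by Ciita, the invariant chain Cd74 guards the newly made peptide groove, H2-DM loads peptide and H2-DO restrains H2-DM. The question put to the data was whether these transcripts moved together across the 12 libraries and which of them departed from that pattern. In bulk RNA, fewer cells of a type and less RNA per cell cannot be told apart.

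Levels are given as CPM, the reads of a gene per 1000000 reads assigned to all listed genes of that library. They carry no correction for gene length, so levels are compared between libraries and not between genes. The libraries held an estimated 11400000 to 37500000 reads, and 1 read was worth 0.0266 to 0.0879 CPM. Fold changes are differences of log2(CPM + 1) from limma, fitted over all 12 libraries and 13673 tested genes, with Benjamini-Hochberg adjusted p-values over all of these genes and a threshold of 0.05. The added 1 shrinks the differences of genes near 0. All 13 T cell markers on the list were at 1 CPM or more in every library, with Cd4 between 528 and 1178 CPM. This does not test purity, since all 33 members also reached 1 CPM in every Unstimulated, CD3 and CD3_CD28_ICOS library.

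The most distinct group was CD3_CD28. The summed level of the 33 members was 2994, 2017 and 2483 CPM in the Unstimulated libraries, 2540, 2431 and 4300 CPM in the CD3 libraries, 576, 650.4 and 594 CPM in the CD3_CD28 libraries and 4740, 2148 and 4043 CPM in the CD3_CD28_ICOS libraries. All 3 CD3_CD28 libraries therefore lay below the other 9, and the other groups overlapped. Of the 33 members, 33, 33, 15 and 33 were at 1 CPM or more in every library of the Unstimulated, CD3, CD3_CD28 and CD3_CD28_ICOS groups. All 3 CD3_CD28 libraries were below the other 9 libraries in 30 of the 33 members, beside 22.1% of all tested genes. The exceptions were H2-Ab1, H2-Eb1 and H2-DMa.

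**Figure D1:**
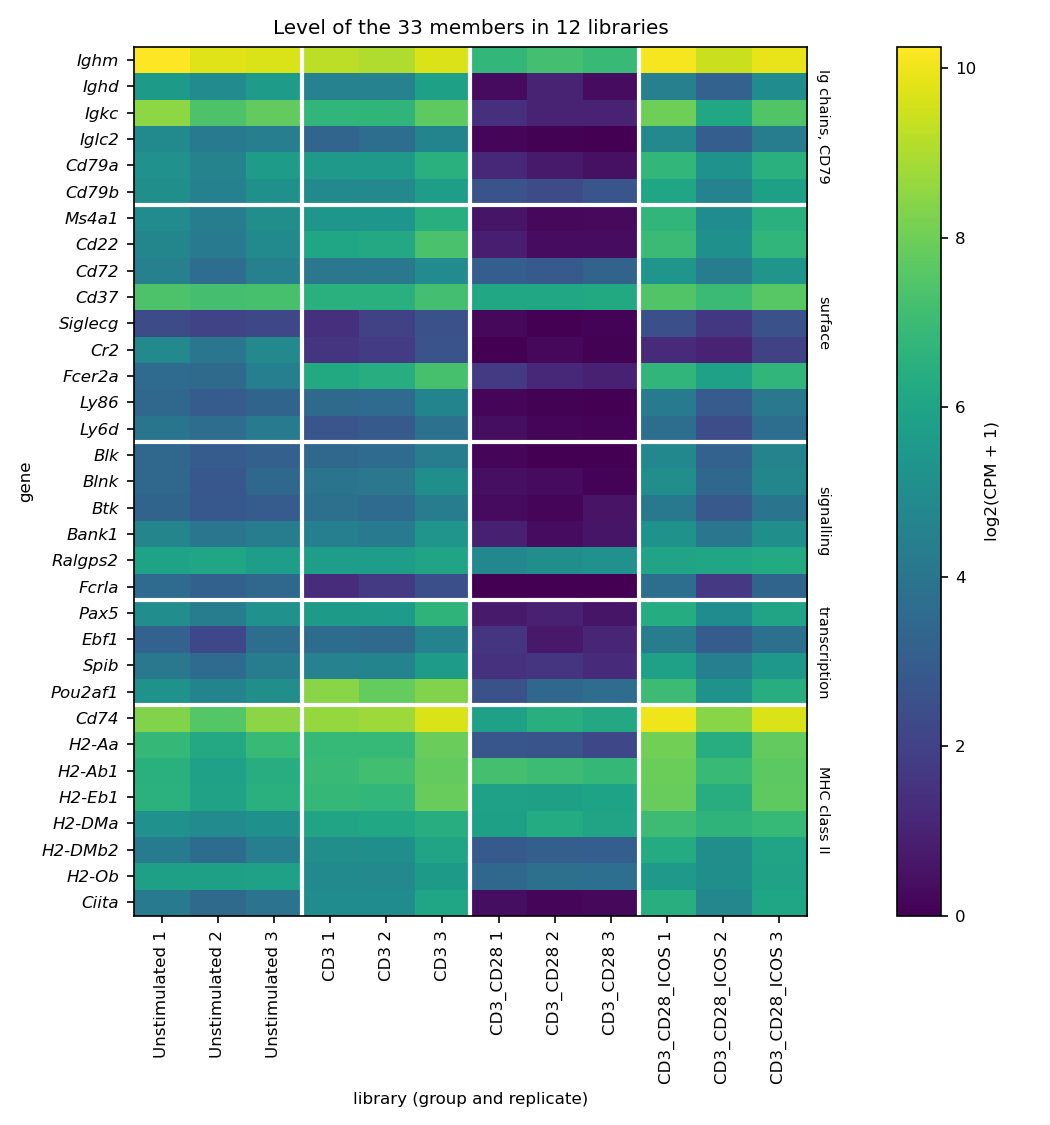
Level of each member (rows, grouped by role) in each of the 12 libraries (columns, by group and replicate), as log2(CPM + 1), with colour from dark (0) to yellow. The CD3_CD28 columns are dark for most members, while Ighm, Cd37, Ralgps2, Cd74, H2-Ab1, H2-Eb1 and H2-DMa keep colour there.

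In CD3_CD28 against CD3, 31 of the 33 members were lower (background: 41.3% of tested genes lower and 16.9% higher). All 33 fitted differences were negative, from −6.00 to −0.12, with a median of −3.51, or −3.57 with Fcrla at the bound given with its values, beside a median of −0.24 over all tested genes. The members that did not pass were H2-Ab1 and H2-DMa. In CD3_CD28_ICOS against CD3_CD28, 32 of 33 were higher (background: 37.5% higher and 22.3% lower), with a median of 3.19 beside 0.15 over all genes, and H2-Ab1 did not pass. In CD3_CD28 against Unstimulated, 30 members were lower and 2 higher (background: 39.3% lower and 33.6% higher), with a median of −2.92 beside −0.08. Since CD3_CD28 enters all 3 of these comparisons, they are not independent of each other.

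Between the other groups the counts were closer to the background. In CD3 against Unstimulated, 11 of 33 members were higher and 5 lower (background: 40% higher and 26.1% lower), with a median difference of 0.66 beside 0.15 over all genes. In CD3_CD28_ICOS against Unstimulated, 13 were higher and 1, Cr2, was lower (background: 32.7% higher and 22.7% lower), with a median of 0.77 beside 0.07. In CD3_CD28_ICOS against CD3, 2 were higher, Cd37 and H2-DMa, and 1, Pou2af1, was lower (background: 16.4% higher and 24.2% lower), with a median of 0.23 beside −0.05. These 3 counts depended on which libraries were in the fit. The 11 became 7 without Unstimulated replicate 2 or CD3 replicate 3, and the 5 became 3 without CD3 replicate 1 or 2. The 13 became 7 without Unstimulated replicate 2 or CD3_CD28_ICOS replicate 1 or 3, and 21 without CD3_CD28_ICOS replicate 2, and the 1 lower became 2 without Unstimulated replicate 2 or CD3 replicate 3 and 3 without CD3_CD28_ICOS replicate 3. The 2 became 6 without CD3 replicate 3, 11 without CD3_CD28_ICOS replicate 2, 25 without both, 4 with the replicate number as a block, and 1 without CD3 replicate 1, CD3 replicate 2 or CD3_CD28_ICOS replicate 3.

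Other scalings moved both the middle of the whole table and the members. The median of the members in CD3_CD28 against CD3 went from −3.51 to −3.30 under median-of-ratios scaling and to −3.19 under quantile normalization. Median-of-ratios scaling shifted the median over all genes by 0.21 in CD3_CD28 against CD3, by −0.17 in CD3_CD28_ICOS against CD3_CD28 and by −0.14 in CD3 against Unstimulated, and quantile normalization shifted it by 0.22, −0.14 and −0.22, and by −0.14 in CD3_CD28_ICOS against Unstimulated. Of the genes called in CD3_CD28 against CD3, 29.0% were higher as reported, 50.9% under median-of-ratios scaling and 48.4% under quantile normalization, while 30 members were called lower under each of these. In CD3_CD28_ICOS against CD3_CD28 that share went from 62.7% to 47.2% and 50.8%, and 32 members were called higher under each. Under quantile normalization it went from 60.6% to 45.5% in CD3 against Unstimulated (8 members higher, 6 lower), from 59.0% to 44.7% in CD3_CD28_ICOS against Unstimulated (11 higher, 3 lower) and from 40.4% to 50.4% in CD3_CD28_ICOS against CD3 (5 higher, 1 lower).

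The genes of the antigen receptor were all lower in the CD3_CD28 than in the CD3 libraries, with less than 20% of the CD3 mean left in each of the 6. Cd79a (chr7:24897381-24902197, mm10), a signalling chain of the receptor, was at 35.5, 23.3 and 49.5 CPM in the Unstimulated, 45.6, 45.7 and 88.8 CPM in the CD3, 1.23, 0.671 and 0.392 CPM in the CD3_CD28 and 109.6, 36.9 and 91.1 CPM in the CD3_CD28_ICOS libraries. Its CD3_CD28 libraries were all far below the other 9, and the other 3 groups overlapped. The fitted difference of CD3_CD28 from CD3 was -5.07 ± 0.42 (SE, adjusted p = 4.07e-06). Its partner Cd79b was at 22 to 34.1, 27.2 to 52.3, 4.25 to 5.57 and 22.7 to 63.4 CPM in the 4 groups in the same order, so that 13.8% of the CD3 mean remained in CD3_CD28, beside 1.27% for Cd79a.

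Igkc, the kappa light chain constant region (chr6:70726435-70726966), stood at 368, 164 and 217 CPM in the Unstimulated, 105, 104 and 209 CPM in the CD3, 1.58, 1.03 and 1.02 CPM in the CD3_CD28 and 256, 70.5 and 178 CPM in the CD3_CD28_ICOS libraries. The CD3_CD28 difference from CD3 was -5.92 ± 0.47 (SE, adjusted p = 5.04e-06), among the largest of the members. Ighd, the heavy chain of IgD, was at 29.5 to 50.1, 22.3 to 55.9, 0.22 to 0.985 and 8.3 to 30.4 CPM in the 4 groups. Iglc2, a lambda light chain constant region that shares 7.72% of its 50-base words with other genes, chiefly Iglc3, was at 18.1 to 29.3, 9.21 to 24, 0 to 0.0879 and 7.4 to 27 CPM.

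Ighm, the heavy chain of IgM (chr12:113418558-113422730), kept far more than the light chains. It was at 1217, 869 and 825 CPM in the Unstimulated, 592, 520.1 and 832 CPM in the CD3, 109.7, 145 and 123 CPM in the CD3_CD28 and 1097, 693 and 972 CPM in the CD3_CD28_ICOS libraries. The CD3_CD28 libraries were again below all others, at 19.4% of the CD3 mean beside 0.868% for Igkc, with a difference of -2.34 ± 0.21 (SE, adjusted p = 3.42e-06). Ighm was also lower in CD3 than in Unstimulated libraries, by -0.59 ± 0.21 (SE, adjusted p = 0.027), a call that was lost without Unstimulated replicate 1 (−0.41, adjusted p = 0.12), CD3 replicate 1 or CD3 replicate 2, and under quantile normalization.

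Among the surface molecules, Ms4a1 (CD20), Cd22 (an inhibitory co-receptor of the antigen receptor) and Fcer2a (CD23, the low-affinity IgE receptor) nearly vanished in CD3_CD28. Ms4a1 was at 30.0, 19.5 and 32.2 CPM in the Unstimulated, 40.7, 41.2 and 86.2 CPM in the CD3, 0.484, 0.179 and 0.196 CPM in the CD3_CD28 and 107, 30.3 and 91.1 CPM in the CD3_CD28_ICOS libraries, and differed by -5.39 ± 0.44 (SE, adjusted p = 3.51e-06) between CD3_CD28 and CD3. Cd22 was at 24.8, 17.2 and 29.1, 66.1, 71.8 and 159, 0.835, 0.269 and 0.275 and 124, 33.9 and 106 CPM in the 4 groups. Its CD3 libraries were all above its Unstimulated libraries, with a difference of 1.93 ± 0.48 (SE, adjusted p = 0.005), and CD3_CD28 differed from CD3 by -6.00 ± 0.48 (SE, adjusted p = 4.82e-06).

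Fcer2a and Cr2 moved in opposite directions from Unstimulated in CD3 and in CD3_CD28_ICOS, while both were lower in CD3_CD28. Fcer2a (chr8:3681737-3694175) was at 11, 10.7 and 20.6 CPM in the Unstimulated, 74.8, 83.5 and 153 CPM in the CD3, 2.33, 1.25 and 0.902 CPM in the CD3_CD28 and 105, 57.4 and 107 CPM in the CD3_CD28_ICOS libraries. It rose by 2.78 ± 0.35 (SE, adjusted p = 2.40e-05) in CD3 and by 2.60 ± 0.35 (SE, adjusted p = 6.51e-05) in CD3_CD28_ICOS against Unstimulated. Cr2 (chr1:195136811-195176716), the complement receptor CD21 that assists the antigen receptor, was at 27, 15.2 and 27.5 CPM in the Unstimulated libraries and at 1.93, 2.54 and 5.2 CPM in the CD3, 0, 0.179 and 0.0392 CPM in the CD3_CD28 and 1.39, 1.05 and 3.1 CPM in the CD3_CD28_ICOS libraries. All 9 stimulated libraries were below all Unstimulated ones, by -2.55 ± 0.32 (SE, adjusted p = 9.54e-06) in CD3 and by -3.11 ± 0.32 (SE, adjusted p = 2.52e-06) in CD3_CD28_ICOS. For no other member was the CD3_CD28_ICOS group called lower than the Unstimulated group as reported. Under quantile normalization the count was 3.

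The remaining surface molecules split by how much was left in CD3_CD28. Siglecg, an inhibitory lectin of B cells, Ly86 (MD-1, partner of CD180) and Ly6d were at or below 0.308 CPM in all 3 CD3_CD28 libraries, and between 1.58 and 23.5 CPM in the other 9. Cd72, another inhibitory receptor of B cells, was at 7.29, 6.38 and 8.66 CPM in CD3_CD28 and 15.8, 16.1 and 29.8 CPM in CD3, which is 36.1% of the CD3 mean and a difference of -1.30 ± 0.32 (SE, adjusted p = 0.004). The exons of Cd72 (chr4:43446462-43454628) overlap those of Tesk1, a kinase gene on the opposite strand, over 41.6% of their bases. Tesk1 was at 22.8, 30.9 and 31.2 CPM in CD3_CD28 and lower, at 19.4, 20.3 and 20.6 CPM, in CD3. Its mean was 58.2 CPM in the Unstimulated and 27.1 CPM in the CD3_CD28_ICOS libraries. Whether counting used strand is not given in the sources used here, so reads of the overlap cannot be told apart.

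Cd37, a tetraspanin (chr7:45233632-45239115) that T cells are also known to carry, kept much of its level in CD3_CD28. It was at 165, 151 and 154 CPM in the Unstimulated, 90.5, 90.0 and 144 CPM in the CD3, 70.2, 68.1 and 73.6 CPM in the CD3_CD28 and 176, 125 and 192 CPM in the CD3_CD28_ICOS libraries. CD3_CD28 held 65.4% of the CD3 mean, a difference of -0.57 ± 0.18 (SE, adjusted p = 0.014) that did not pass under median-of-ratios scaling (−0.32, adjusted p = 0.13), under quantile normalization or without CD3 replicate 3. Against Unstimulated, CD3 was lower by -0.57 ± 0.18 (SE, adjusted p = 0.013), which did not pass without CD3 replicate 1 or 2, and CD3_CD28 was lower by -1.14 ± 0.18 (SE, adjusted p = 6.41e-05).

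Of the signalling genes, 5 of 6 were at or below 0.879 CPM in every CD3_CD28 library: Blk (a Src family kinase of B cells), Blnk (the adaptor downstream of the receptor), Btk (the kinase that activates phospholipase C), Bank1 (a scaffold) and Fcrla (an intracellular Fc receptor-like protein). Bank1, for example, was at 24.5, 15.1 and 19 CPM in the Unstimulated, 20.4, 18.2 and 39.4 CPM in the CD3, 0.879, 0.269 and 0.51 CPM in the CD3_CD28 and 37.6, 15.4 and 33.4 CPM in the CD3_CD28_ICOS libraries, and differed by -4.06 ± 0.34 (SE, adjusted p = 2.13e-06) between CD3_CD28 and CD3. Blnk and Btk were also called higher in CD3 than in Unstimulated libraries, by 1.13 and 0.88, and both calls were lost without Unstimulated replicate 2 or CD3 replicate 3 and under quantile normalization (adjusted p = 0.083 and 0.13).

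Fcrla (chr1:170917576-170927583) was listed at 0 in all 3 CD3_CD28 libraries. With a floor of 3 reads over the estimated 70600000 reads of that group, or 0.0425 CPM, it was at least 66.2-fold lower there than in CD3 and at least 225-fold lower than in Unstimulated libraries. It was at 10.8, 8.05 and 9.82 CPM in the Unstimulated, 1.49, 2.32 and 4.63 CPM in the CD3 and 12.1, 2.28 and 8.89 CPM in the CD3_CD28_ICOS libraries. All CD3 libraries were below all Unstimulated libraries, by -1.55 ± 0.43 (SE, adjusted p = 0.0066), while the CD3_CD28_ICOS libraries overlapped both.

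Ralgps2, an exchange factor for Ral GTPases (chr1:156804166-156939626), kept more of its level than the other signalling genes. It was at 60.3, 64.1 and 52.2 CPM in the Unstimulated, 50.8, 53.1 and 62.6 CPM in the CD3, 26.6, 32 and 35.5 CPM in the CD3_CD28 and 62.5, 64.9 and 75.8 CPM in the CD3_CD28_ICOS libraries. The CD3_CD28 group was below the others, at 56.6% of the CD3 mean and a difference of -0.81 ± 0.13 (SE, adjusted p = 1.22e-04).

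The transcription regulators included the member with the largest rise in CD3. Pou2af1 (OBF-1), a coactivator of the octamer factors (chr9:51213708-51240080), was at 36, 23.6 and 32.2 CPM in the Unstimulated, 341, 227 and 314 CPM in the CD3, 4.75, 9.89 and 11.6 CPM in the CD3_CD28 and 129.6, 37.7 and 83.2 CPM in the CD3_CD28_ICOS libraries. The lowest CD3 library was above the highest of any other group. The difference was 3.22 ± 0.43 (SE, adjusted p = 7.49e-05) for CD3 against Unstimulated, -4.97 ± 0.43 (SE, adjusted p = 7.74e-06) for CD3_CD28 against CD3 and -1.95 ± 0.43 (SE, adjusted p = 0.0048) for CD3_CD28_ICOS against CD3. Pou2af1 was also the member whose 3 CD3 libraries differed in an order of their own, with replicate 1 highest.

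Pax5, the factor that holds B cell identity (chr4:44524757-44710487), was at 31.5, 19.5 and 35.5 CPM in the Unstimulated, 47.6, 50.4 and 102 CPM in the CD3, 0.659, 0.895 and 0.51 CPM in the CD3_CD28 and 80.6, 30.3 and 62.8 CPM in the CD3_CD28_ICOS libraries. Its difference between CD3_CD28 and CD3 was -5.24 ± 0.37 (SE, adjusted p = 8.62e-07). Ebf1, which specifies the B lineage, and Spib, an Ets factor of B cells and plasmacytoid dendritic cells, kept 8.08% and 5.38% of their CD3 means in CD3_CD28, at 0.626 to 1.89 and 1.41 to 1.92 CPM. Pax5 and Spib were called higher in CD3 than in Unstimulated libraries, by 1.14 and 0.93, and neither call remained without Unstimulated replicate 2 or CD3 replicate 3. Spib also lost it under both other scalings.

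The MHC class II genes divided most clearly. Ciita, the transactivator (chr16:10480059-10528418), was at 17.9, 10.5 and 14.1 CPM in the Unstimulated, 31.1, 30.6 and 65 CPM in the CD3, 0.308, 0.0895 and 0.157 CPM in the CD3_CD28 and 87.1, 25.5 and 63.4 CPM in the CD3_CD28_ICOS libraries, with a difference of -5.10 ± 0.40 (SE, adjusted p = 2.08e-06) between CD3_CD28 and CD3. H2-Aa, the alpha chain of the I-A molecule (chr17:34282744-34287823), was at 112, 71.3 and 120.2, 116, 117 and 242, 5.63, 5.37 and 3.69 and 269.6, 82.5 and 218 CPM in the 4 groups. Its CD3_CD28 libraries held 3.10% of the CD3 mean, a difference of -4.68 ± 0.44 (SE, adjusted p = 1.40e-05).

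H2-Ab1, the beta chain that pairs with H2-Aa (chr17:34257689-34269419), did not follow it. It was at 91.1, 57.9 and 83.5 CPM in the Unstimulated, 122, 139 and 219.8 CPM in the CD3, 148, 128 and 112 CPM in the CD3_CD28 and 247, 122 and 201 CPM in the CD3_CD28_ICOS libraries. The CD3_CD28 libraries overlapped those of CD3, at 80.7% of the CD3 mean, and all lay above the Unstimulated libraries. Against Unstimulated the difference was 0.75 ± 0.28 (SE, adjusted p = 0.03), which did not pass without Unstimulated replicate 2, CD3_CD28 replicate 1 or CD3_CD28 replicate 2 (0.55 to 0.75, adjusted p = 0.065 to 0.11). H2-Ab1 was also higher in CD3 than in Unstimulated libraries, by 1.02 ± 0.28 (SE, adjusted p = 0.007).

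H2-DMa, a chain of the peptide exchanger H2-DM (chr17:34119541-34139101), was likewise held. It was at 35.6, 29.5 and 34.3 CPM in the Unstimulated, 62.3, 67.3 and 82.2 CPM in the CD3, 55.3, 77.8 and 61.7 CPM in the CD3_CD28 and 128, 101 and 116 CPM in the CD3_CD28_ICOS libraries. All 9 stimulated libraries were above all Unstimulated ones, by 1.06 ± 0.14 (SE, adjusted p = 1.25e-05) in CD3, 0.94 ± 0.14 (SE, adjusted p = 3.18e-05) in CD3_CD28 and 1.76 ± 0.14 (SE, adjusted p = 1.54e-07) in CD3_CD28_ICOS. CD3 and CD3_CD28 overlapped, with 91.9% of the CD3 mean in CD3_CD28. Its exons overlap those of Brd2, on the opposite strand, over 10.4% of their bases, and Brd2 was at 264.5 ± 15.1 CPM (SD, n = 3) in CD3_CD28 and 422 ± 9.85 CPM in Unstimulated libraries.

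H2-Eb1, the beta chain of I-E (chr17:34305867-34316674), lay between these patterns. C57BL/6 mice are known to lack a working I-E alpha chain, so that this chain is transcribed without a partner. It was at 92.6, 59.3 and 90.4 CPM in the Unstimulated, 114, 110.3 and 233 CPM in the CD3, 56.6, 56.1 and 60.4 CPM in the CD3_CD28 and 234, 83.7 and 209.8 CPM in the CD3_CD28_ICOS libraries. The CD3_CD28 level was 37.9% of the CD3 mean, a difference of -1.30 ± 0.40 (SE, adjusted p = 0.018) that did not pass without CD3 replicate 3 (−0.95, adjusted p = 0.064). The CD3_CD28 and Unstimulated libraries overlapped in range, and that comparison did not pass.

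The other class II genes kept intermediate shares. Cd74, the invariant chain (chr18:60803848-60812652), was at 317, 184 and 349 CPM in the Unstimulated, 391, 425 and 802 CPM in the CD3, 57, 88.2 and 71 CPM in the CD3_CD28 and 1013, 347 and 809.7 CPM in the CD3_CD28_ICOS libraries, and CD3_CD28 differed from CD3 by -2.83 ± 0.43 (SE, adjusted p = 3.34e-04). H2-DMb2, the other chain of H2-DM, was at 32.8 to 63.1 CPM in CD3 and 6.39 to 7.54 CPM in CD3_CD28, or 16.5% of the CD3 mean. Of its 50-base words, 29.5% also occur in other genes, mostly the near copy H2-DMb1, so its count is uncertain. H2-DMb1 was at 3.15 to 5.86, 5.26 to 12, 4.09 to 5.68 and 7.23 to 13.1 CPM in the 4 groups.

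H2-Ob, the beta chain of H2-DO (chr17:34238903-34254414), was at its highest in CD3_CD28_ICOS replicate 3 and the Unstimulated libraries. It was at 56.3, 55.7 and 57.1 CPM in the Unstimulated, 28, 27.4 and 46.6 CPM in the CD3, 9.89, 12.8 and 12.4 CPM in the CD3_CD28 and 44.8, 33.3 and 59.5 CPM in the CD3_CD28_ICOS libraries. CD3 was lower than Unstimulated by -0.76 ± 0.21 (SE, adjusted p = 0.0067), with no overlap, and CD3_CD28 was lower than CD3 by -1.43 ± 0.21 (SE, adjusted p = 1.02e-04). Its partner chain H2-Oa, outside the member list, moved the other way: it was at 10.1, 7.39 and 10.6 CPM in the Unstimulated, 29.4, 21.2 and 32.6 CPM in the CD3, 28.4, 29.5 and 31 CPM in the CD3_CD28 and 78.1, 87.6 and 97.6 CPM in the CD3_CD28_ICOS libraries, and rose by 1.46 ± 0.16 (SE, adjusted p = 1.81e-06) in CD3 and by 3.11 ± 0.16 (SE, adjusted p = 2.15e-09) in CD3_CD28_ICOS against Unstimulated. H2-Oa in CD3_CD28 overlapped CD3, as H2-Ab1 and H2-DMa did.

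**Figure D2:**
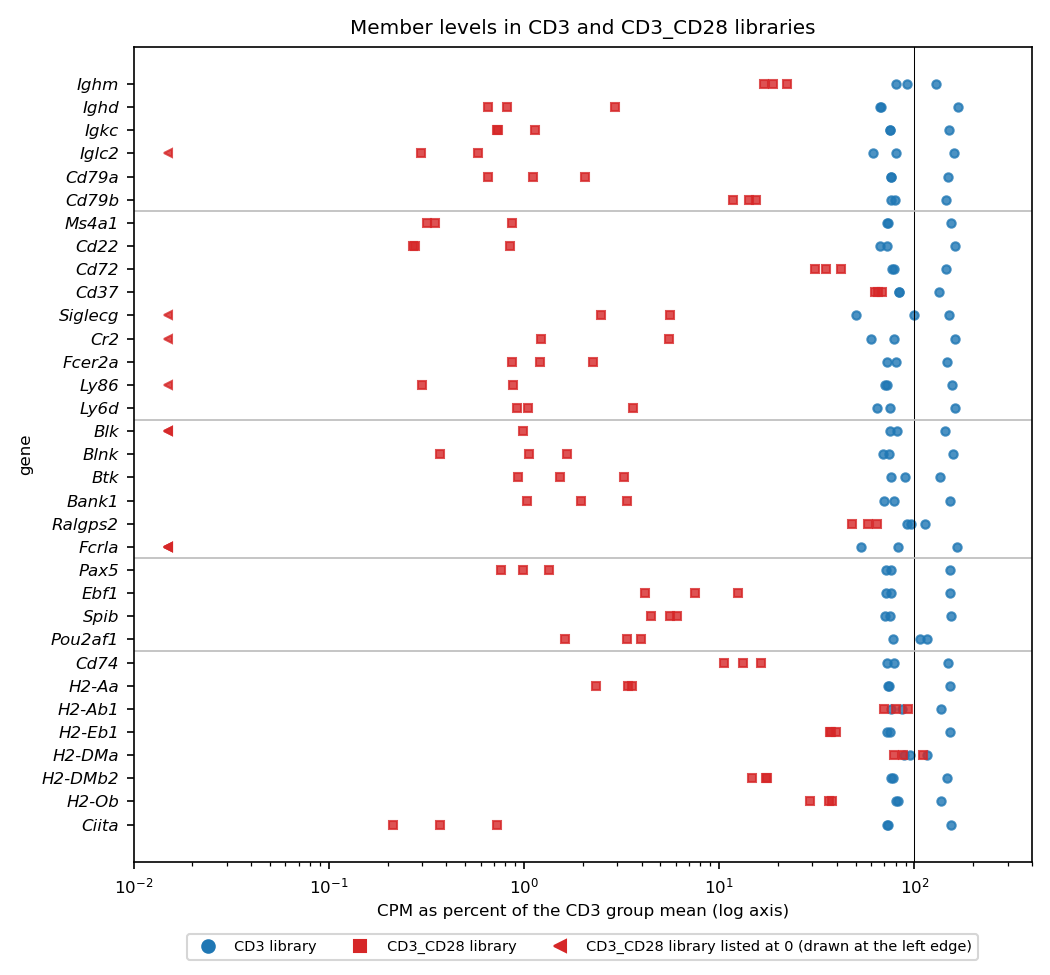
Level of each member in the 3 CD3 libraries (circles) and the 3 CD3_CD28 libraries (squares), as a percentage of the CD3 group mean on a log axis, with values listed at 0 drawn as triangles at the left edge. In CD3_CD28, 20 of the 33 members were under 5% of the CD3 mean and 7 were at or above 20%.

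The share of the CD3 mean left in CD3_CD28 had a median of 2.26% over the members, beside 81.8% over all tested genes with a value. It was under 5% in 20 members and under 20% in 26. The 7 at or above 20% were Cd72, Cd37, Ralgps2, H2-Ab1, H2-Eb1, H2-DMa and H2-Ob. Nearest to that level on the lower side was Ighm at 19.4%, and nearest on the upper side H2-Ob at 34.4%. Of the 7, 4 lie on chromosome 17 between the start of H2-DMa at 34119541 and the end of H2-Eb1 at 34316674. H2-Aa at 3.10% and H2-DMb2 at 16.5% lie within the same stretch, so position alone did not separate the genes that were held from those that were not.

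Class II promoters are known for an X box, bound by RFX proteins, and a Y box, the motif CCAAT bound by NF-Y. The 150 bases before the transcription start of 4 class II genes that differed in how much was left in CD3_CD28 are therefore shown 5′ to 3′ on the gene's strand, from RefSeq on GRCm38.p6 (mm10), with CCAAT (on the opposite strand ATTGG) and AGNAAC, a core of many X boxes, in capitals. H2-Aa and H2-DMb2 kept 3.10% and 16.5% of the CD3 mean, H2-Ob and H2-Eb1 34.4% and 37.9%. The windows are chr17:34287824-34287973, minus strand for H2-Aa, chr17:34145099-34145248, plus strand for H2-DMb2, chr17:34238755-34238904, plus strand for H2-Ob and chr17:34305717-34305866, plus strand for H2-Eb1. The H2-DMb2 window lies inside the gene as counted, which starts at 34143307, so its RefSeq start is a different, internal one.
H2-Aa: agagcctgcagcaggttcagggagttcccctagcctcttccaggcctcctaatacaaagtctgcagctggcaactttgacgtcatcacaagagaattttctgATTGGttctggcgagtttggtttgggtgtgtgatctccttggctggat
H2-DMb2: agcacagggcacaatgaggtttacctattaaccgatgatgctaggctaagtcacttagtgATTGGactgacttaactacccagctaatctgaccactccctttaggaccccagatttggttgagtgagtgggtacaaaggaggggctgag
H2-Ob: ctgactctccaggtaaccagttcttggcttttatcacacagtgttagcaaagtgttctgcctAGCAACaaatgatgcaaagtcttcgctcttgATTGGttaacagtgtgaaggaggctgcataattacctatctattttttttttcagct
H2-Eb1: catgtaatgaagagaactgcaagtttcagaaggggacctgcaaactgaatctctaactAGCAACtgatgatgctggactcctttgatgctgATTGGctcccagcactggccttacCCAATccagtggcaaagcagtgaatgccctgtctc

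All 4 windows held CCAAT, starting 48 bases before the transcription start in H2-Aa, 90 in H2-DMb2, 57 in H2-Ob, and 59 and 35 in H2-Eb1. AGNAAC was found in H2-Ob at 88 bases and in H2-Eb1 at 92, apart from the CCAAT matches. Before their CCAAT match, H2-Aa holds GGCAAC and H2-DMb2 ATTAAC, each 1 letter from the motif and not counted by the search. The search therefore does not show that H2-Aa or H2-DMb2 lacks an X box. H2-DMa, which kept 91.9% of the CD3 mean, has 2 windows, neither with AGNAAC and 1 with CCAAT, farther than 150 bases from the start. Both H2-DMa windows also begin inside the gene as counted, which starts at 34119541. A promoter window was matched for 22 of the 33 members, 28 windows in all. Searched on both strands over the 250 bases before the start, CCAAT was in 10 of the 22 and in 33.9% of 32851 windows of all genes, and AGNAAC was in 10 of the 22 and in 42.3% of all windows. The octamer ATGCAAAT, through which Pou2af1 is known to act, was in 1 of the 22, Blnk, and in 1.60% of all windows. The member counts take a gene with the motif in any of its windows, while the shares count single windows. The counts and shares are therefore not in like units, and no excess or lack is read from them. A match is a stretch of letters and not a measured binding site.

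Within the CD3 and CD3_CD28_ICOS groups, 1 library stood apart in most members. In the CD3 group, replicate 3 stood above replicates 1 and 2: its level over their mean had a median of 2.02 over the members, from 1.11 to 2.49, beside 1.01 over all tested genes with a value. It was above 1.8 in 25 of the 33. The 8 below were Ighm, Cd37, Btk, Ralgps2, Pou2af1, H2-Ab1, H2-DMa and H2-Ob. In the CD3_CD28_ICOS group, replicate 2 stood below: its level as a percentage of the mean of replicates 1 and 3 had a median of 39.5%, from 21.7 to 93.8%, beside 94.8% over all genes. It was at most 50% in 26 members, and the 7 above were Ighm, Cd37, Fcer2a, Ralgps2, H2-Ab1, H2-DMa and H2-Ob. The genes Ighm, Cd37, Ralgps2, H2-Ab1, H2-DMa and H2-Ob were thus outside these cuts in both groups. The values ran on across the cuts, which do not mark off a separate set. H2-Ab1, for example, was at 54.5% beside 53.9% for Fcer2a and 49.1% for Cd72. Its ratio in CD3 was 1.69, beside 1.62 for Btk and 1.83 for Blk.

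**Figure D3:**
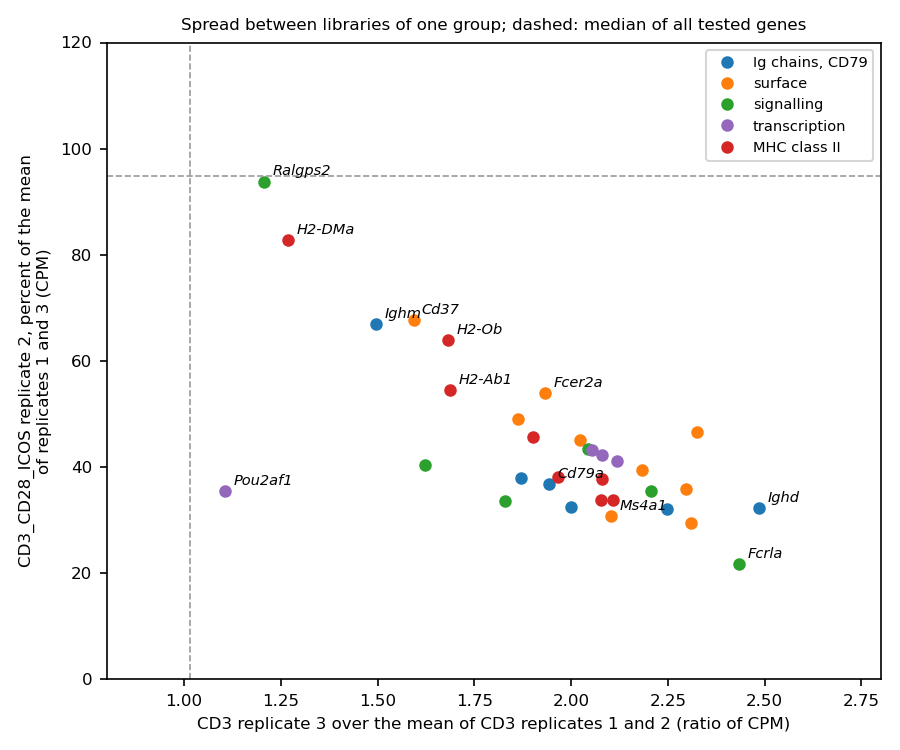
Each point is a member. The horizontal axis gives the level in CD3 replicate 3 over the mean of CD3 replicates 1 and 2, the vertical axis the level in CD3_CD28_ICOS replicate 2 as a percentage of the mean of replicates 1 and 3, and dashed lines mark the medians of all tested genes (1.01 and 94.8%). Most members lie at the lower right, near 2.02 and 39.5%, and Ralgps2 and H2-DMa lie nearest to the medians of all genes, with Pou2af1 near the vertical line only.

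A reference level was formed in each library from Cd79a, Cd79b and Ms4a1, as the mean of their log2(CPM + 1) turned back into CPM. It was 32.9, 21.5 and 37.9 CPM in the Unstimulated, 37.6, 37.2 and 73.7 CPM in the CD3, 1.72, 1.18 and 1.22 CPM in the CD3_CD28 and 90.5, 29.4 and 77.7 CPM in the CD3_CD28_ICOS libraries. All 3 libraries were ordered as for the reference in 14, 9, 5 and 23 of the other 30 members in the 4 groups (background: 12.9%, 13.4%, 8.3% and 28.6% of all tested genes). Of these 30, 29 were highest in the same CD3 library as the reference, replicate 3 (background: 37.6%), the exception being Pou2af1. In CD3_CD28_ICOS, 29 were lowest in replicate 2, as the reference was (background: 45.9%), the exception being Ralgps2, and 23 were highest in replicate 1 (background: 39.7%). In Unstimulated libraries 28 were lowest in replicate 2 (background: 25.8%), the exceptions being Ighm and Ralgps2, and 14 were highest in replicate 3 (background: 24.2%). In CD3_CD28, where the reference was near 1 CPM, 14 were highest in replicate 1 (background: 14.2%) and 9 lowest in replicate 2 (background: 23.7%). The members were chosen as B cell genes, so a shared order of libraries describes these libraries and is no independent evidence of a common source.

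Transcripts carried by 1 kind of cell of unchanging expression keep fixed ratios to each other in every library. The difference between each member and the reference of its own library, on the log2(CPM + 1) scale, was therefore compared between groups in a limma fit of all tested genes against the same reference. Of the 30 members, 22, 22 and 29 did not pass in CD3 against Unstimulated, CD3_CD28_ICOS against Unstimulated and CD3_CD28_ICOS against CD3. The SE was close to 0.50 for nearly every gene, in a fit where the same reference was subtracted from all of them. It was wider than the spread of many members, so a ratio that did not pass is not shown to be unchanged. The adjusted p-values of ratios, here and below, rest on this shared spread and do not measure the spread of a member's own ratio. H2-DMb2 did not pass, with a log2 ratio to the reference of -0.90 ± 0.01 (SD, n = 3) in the Unstimulated, -0.19 ± 0.04 in the CD3 and -0.12 ± 0.23 in the CD3_CD28_ICOS libraries, nor did Ciita, with -1.06 ± 0.27, -0.24 ± 0.05 and -0.18 ± 0.12. In both, every CD3 library was above every Unstimulated one. H2-Aa had a log2 ratio to the reference of 1.69 ± 0.05 (SD, n = 3) in the Unstimulated, 1.64 ± 0.05 in the CD3 and 1.50 ± 0.06 in the CD3_CD28_ICOS libraries, and Cd74 had 3.14 ± 0.10, 3.42 ± 0.07 and 3.45 ± 0.08. For H2-Aa every CD3_CD28_ICOS library was below every Unstimulated one. For Cd74 every CD3 and CD3_CD28_ICOS library was above every Unstimulated one.

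In CD3 against Unstimulated, 3 members were higher relative to the reference and 5 lower (background: 6.58% of tested genes higher and 16.1% lower). Pou2af1 rose the most, by 2.59 ± 0.49 (SE, adjusted p = 3.35e-06), from a log2 ratio of 0.01 ± 0.20 to 2.60 ± 0.54 (SD, n = 3). Fcer2a rose by 2.15 ± 0.50 (SE, adjusted p = 2.15e-04), and Cd22 by 1.30 ± 0.50 (SE, adjusted p = 0.042), a call that was kept only without CD3_CD28_ICOS replicate 1 or 2 when libraries were left out in turn. Cr2 fell the furthest, by -3.18 ± 0.51 (SE, adjusted p = 2.47e-08), from -0.40 ± 0.11 to -3.58 ± 0.15. Fcrla changed by -2.18, Igkc by -1.47, Ly6d by -1.42 and H2-Ob by -1.39. The calls of Igkc, Ly6d and H2-Ob did not hold without each library: that of Igkc was lost without Unstimulated replicate 1, CD3 replicate 1 or CD3 replicate 2, and the count of 5 became 2 without any of these 3, 3 without Unstimulated replicate 2 or CD3 replicate 3, and 9 without CD3_CD28_ICOS replicate 2. It was 11 with a reference of 7 B cell genes.

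In CD3_CD28_ICOS against Unstimulated, 1 member was higher relative to the reference, Fcer2a by 1.64 ± 0.50 (SE, adjusted p = 0.0076), and 7 were lower (background: 3.36% higher and 28.8% lower). Cr2 fell by -4.07 ± 0.51 (SE, adjusted p = 3.68e-13) and Ighd by -2.14 ± 0.50 (SE, adjusted p = 3.63e-04). The others were Igkc (-1.63), Iglc2 (-1.41), Ly6d (-1.64), Fcrla (-1.44) and H2-Ob (-1.29). The 7 became 3 without Unstimulated replicate 1 or 2 and 4 without CD3_CD28_ICOS replicate 3, and the call of Fcer2a was lost without Unstimulated replicate 1 (1.44, adjusted p = 0.073). Without CD3_CD28_ICOS replicate 2 there were 11 lower and 2 higher. Thus Cr2, Fcrla, Igkc, Ly6d and H2-Ob were called lower, and Fcer2a higher, relative to the reference in both stimulated groups, which share the Unstimulated libraries.

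In CD3_CD28_ICOS against CD3, Pou2af1 was the 1 member called of 30, lower relative to the reference (background: 2.02% lower and 0.344% higher), by -2.28 ± 0.49 (SE, adjusted p = 7.30e-04). It was not called without CD3 replicate 1 (−2.01, adjusted p = 0.073), and 3 members were called lower without CD3_CD28_ICOS replicate 2. The log2 ratio of Cr2 was -4.47 ± 0.71 in CD3_CD28_ICOS and that of Fcer2a was 0.54 ± 0.37, and neither differed from CD3 past the threshold.

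**Figure D4:**
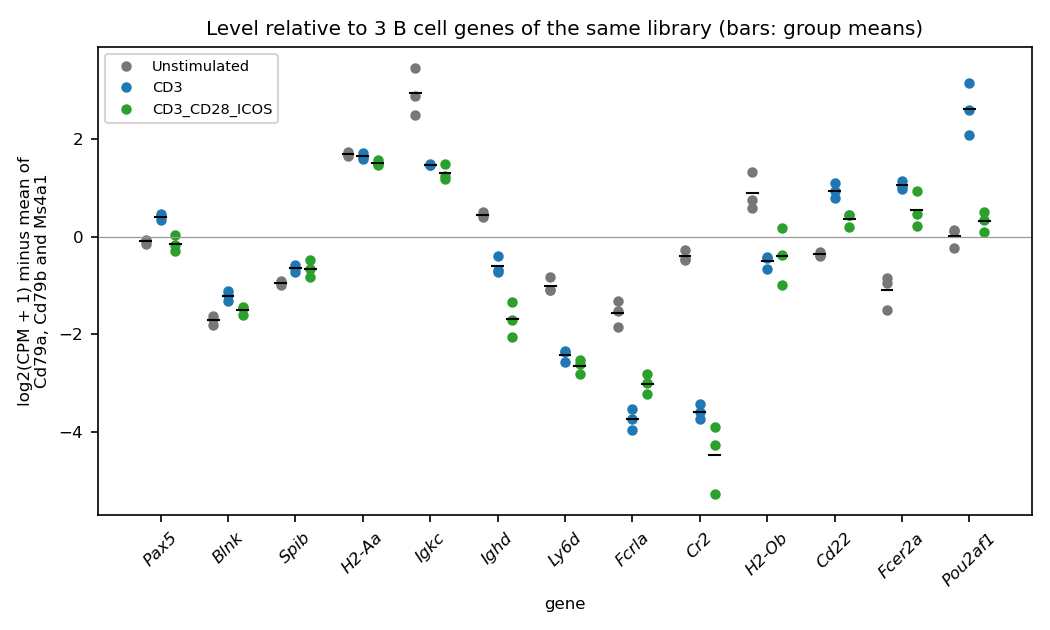
log2(CPM + 1) of 13 members minus the mean of Cd79a, Cd79b and Ms4a1 in the same library, for the Unstimulated (grey), CD3 (blue) and CD3_CD28_ICOS (green) libraries, with bars at the group means. The H2-Aa means of all 3 groups lie between 1.50 and 1.69, though every CD3_CD28_ICOS library is below every Unstimulated one. Cr2 goes from −0.40 to −3.58 and −4.47 and Pou2af1 from 0.01 to 2.60 and 0.32.

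Ratios in CD3_CD28 read differently, because the reference itself was near the added 1 and its 3 genes did not agree. Their mean log2 ratios to the reference in CD3_CD28 were 1.33 for Cd79b, -0.45 for Cd79a and -0.88 for Ms4a1, so Cd79b weighed most in it. Relative to it, 97.9% of all tested genes were higher in CD3_CD28 than in Unstimulated libraries and 99.6% higher than in CD3, so the members are read against that: 15 of 30 were called higher and 2 lower against Unstimulated (background: 0.344% lower), and 15 higher and 3 lower against CD3 (background: 0.0512% lower). In CD3_CD28_ICOS against CD3_CD28, 18 of 30 were lower and 2 higher (background: 99.6% lower and 0.0512% higher). The largest positive ratio changes against CD3 were those of H2-DMa, 4.22 ± 0.49 (SE, adjusted p = 3.07e-17), and H2-Ab1, 4.07 ± 0.50 (SE, adjusted p = 4.27e-16), followed by Cd37 (3.77), Ralgps2 (3.54), H2-Eb1 (3.05) and Cd72 (3.04). Igkc, -1.58, Cd22, -1.66, and Fcer2a, -1.01, were lower against the reference, though none was with Cd79a alone as the reference, and the call of Fcer2a was also lost without any 1 of 6 libraries (Unstimulated replicate 1, each CD3 replicate, and CD3_CD28 replicates 2 and 3). With a pseudocount of 0.1 in place of 1, the 2 lower against Unstimulated became 7, the 3 lower against CD3 became 6 and the 2 higher in CD3_CD28_ICOS became 4. Values for members near 0 in CD3_CD28 rest on the added 1. The 15 called higher against CD3 include Fcrla, listed at 0 in all 3 CD3_CD28 libraries, and Siglecg, Cr2 and Ly6d, near 0 there. The same genes are among the 18 lower in CD3_CD28_ICOS. With the pseudocount of 0.1, Fcrla, Cr2 and Ly6d were no longer called higher against CD3, nor Siglecg and Btk against Unstimulated. Calls of members near 0 are therefore not read as transcripts kept relative to the reference. The 2 lower against Unstimulated became 1 without Unstimulated replicate 1 or CD3_CD28 replicate 1 or 3, the 3 lower against CD3 became 5 without CD3_CD28_ICOS replicate 2, and the 2 higher in CD3_CD28_ICOS became 1 without CD3_CD28 replicate 2 or 3 or CD3_CD28_ICOS replicate 1 or 3.

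Genes of B cells outside the member list also had their lowest summed level in CD3_CD28. Of 24 other B cell genes tested, of 25 listed, 19 were lower and 1 higher in CD3_CD28 against CD3, 21 higher and 1 lower in CD3_CD28_ICOS against CD3_CD28, and 8 higher and 2 lower in CD3 against Unstimulated, beside the backgrounds given for these comparisons. The median difference in CD3_CD28 against CD3 was −1.83, beside −0.24 over all genes. Their summed level was 396 to 516 CPM in the Unstimulated, 554 to 960.2 CPM in the CD3, 310 to 324 CPM in the CD3_CD28 and 557 to 1083 CPM in the CD3_CD28_ICOS libraries. Cd83, a surface protein of activated lymphocytes and dendritic cells, was at 6.99 to 13 CPM in Unstimulated and at 41.9 to 85.2, 52.9 to 56.1 and 57.3 to 102 CPM in the stimulated groups, so its CD3_CD28 libraries overlapped those of CD3.

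Of 14 other genes of the class II pathway, all tested, 8 were lower and 1 higher in CD3_CD28 against CD3 (background: 41.3% lower and 16.9% higher), 10 higher and 1 lower in CD3_CD28_ICOS against CD3_CD28 (background: 37.5% higher and 22.3% lower), and 5 higher and 5 lower in CD3 against Unstimulated, the higher ones near the background (40% higher and 26.1% lower). Their summed level was 738 to 864, 616 to 697, 420 to 524 and 726 to 856 CPM in the 4 groups, in the order used throughout. Rfx5, a subunit of the RFX complex that binds the X box, was at 23.9 to 29, 43 to 50.8, 19.6 to 21.9 and 61.3 to 72.4 CPM, and fell by -1.14 ± 0.11 (SE, adjusted p = 1.81e-06) between CD3 and CD3_CD28. Other RFX and NF-Y subunits, named here beside it, went different ways. Rfxap was at 19.4 to 19.7 CPM in CD3 and 18.3 to 24.7 CPM in CD3_CD28, and Nfyb at 71.9 to 80.6 and 105 to 113 CPM. Rfxank, Nfya and Nfyc had lower means in CD3_CD28 than in CD3. H2-Eb2, a further class II beta chain, was at 3.76 to 9.72 CPM in CD3 and 0 to 0.0895 CPM in CD3_CD28, whereas Lgmn, a lysosomal protease, was highest in Unstimulated libraries at 48.9 to 68.6 CPM, beside 7.72 to 9.8, 4.18 to 5.37 and 15.9 to 20.3 CPM in the stimulated groups.

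Markers of other antigen-presenting cells did not move as 1 group. All 14 monocyte and macrophage markers were tested, and 13 were lower in CD3 than in Unstimulated libraries (background: 26.1% lower), while 2 were lower and 1 higher in CD3_CD28 against CD3 (background: 41.3% lower and 16.9% higher). Their summed level was 241 to 578 CPM in Unstimulated and 38.6 to 75.5, 15.4 to 19.4 and 15.0 to 45.5 CPM in the stimulated groups. Lyz2, lysozyme of myeloid cells, was at 88.7, 37.8 and 47.4 CPM in Unstimulated and 0.614, 0.114 and 0.226, 0, 0 and 0 and 6.45, 0.262 and 0.0705 CPM in the stimulated groups, with CD3_CD28_ICOS replicate 1 the highest of those 9. Mpeg1, a pore-forming protein counted on this list, made up most of its summed level in CD3. It was at 84.1, 39.1 and 41.2 CPM in the Unstimulated, 25.3, 37.5 and 62.2 CPM in the CD3, 0.352, 0.269 and 0.275 CPM in the CD3_CD28 and 28.2, 8.6 and 26 CPM in the CD3_CD28_ICOS libraries. Like most members, Mpeg1 was low in CD3_CD28, highest in replicate 3 of CD3 and lowest in replicate 2 of CD3_CD28_ICOS. Which cells carried it was not tested. Of 13 dendritic cell markers, 11 were listed and 7 tested, of which 4 were higher and 2 lower in CD3 against Unstimulated (background: 40% higher and 26.1% lower), and 1 was higher and 1 lower in CD3_CD28 against CD3. Their summed level was 559 to 712, 881 to 990, 676 to 1090.1 and 1054 to 1202 CPM, nearly all of it Ccr7, a chemokine receptor that T cells also carry, at 510.4 to 661, 803 to 929, 620.3 to 1021 and 1003 to 1159 CPM. Fscn1, the actin-bundling protein fascin, was at 0.999 to 4.31, 16.3 to 30.3, 20.9 to 31.8 and 7.7 to 8.79 CPM, and Flt3, a growth factor receptor of dendritic cell precursors, at 0.874 to 2.62, 2.96 to 7.31, 0.0895 to 0.396 and 0.561 to 2.29 CPM, with a difference of -2.15 ± 0.32 (SE, adjusted p = 1.08e-04) between CD3_CD28 and CD3. Itgax (CD11c) was at 3.3 to 8.42 CPM in Unstimulated and at or below 0.264 CPM in all 9 stimulated libraries, and Clec9a, chosen here because it was listed at 0 in all 9, was at 0.219 to 0.521 CPM in Unstimulated. What part these markers have in the class II levels was not tested.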

How the data were processed

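CPM values were deposited by the authors for 17203 genes in 12 libraries, with 1e-04 added to every value, which was found from the values and removed. Partek 10, DESeq2 and mm10 are listed, per the submitters' processing notes. The sources used here name no aligner, counter, annotation or strand setting. A further table of the authors' own comparisons was not used. Depth was estimated from the steps between low CPM values, of which 75.9 to 80.5% were whole multiples, so no test on reads was run.

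The 13673 genes that reached 1 CPM in 3 or more libraries were tested as log2(CPM + 1) with limma 3.58.1 (R 4.3.3), 1 mean per group, trend and robust estimation, two-sided, adjusted by Benjamini-Hochberg. The scripts were checked on simulated data. All members could be named, and of other lists the genes called with the largest change in either direction, those at the highest level, and a fixed few (Cd4, Lyz2, Itgax, Cd8a, H2-Oa, H2-DMb1 and Rfx5 among them). Members and lists were chosen with earlier results of these data known. Coordinates matched GENCODE M21 for all 33 members. Words of 50 bases shared between annotated transcripts mark possible shared reads. No label says what a replicate number shares. Same-numbered CD3 and CD3_CD28_ICOS libraries deviated together from their group means in all 3 pairs (r = 0.102, 0.332 and 0.289 across genes), so the numbers were taken to pair these groups, and no other 2 groups had all 3 pairs over 0.1. The values given as reported nevertheless come from the unpaired fit, with the replicate block as an alternative. Alternatives covered the pseudocount, filters, scaling, the replicate block, the reference genes and leaving out each library.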

Additional observations from a re-analysis of the deposited data

How the results depend on the processing

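Of 2937 recomputed log2 fold changes of called members, 2869 kept their direction and call and 68 no longer passed. Of 1218 recomputed ratios to the reference, 1120 kept both, 97 no longer passed, and that of Fcrla in CD3_CD28_ICOS against CD3_CD28 changed sign (0.29 with a pseudocount of 0.1). The fold changes counted are those of members called as reported, mostly in comparisons with CD3_CD28, and leave out members called only in an alternative. In CD3 against Unstimulated, 7 of 11 higher and 3 of 5 lower calls were kept without each library in turn. In CD3_CD28_ICOS against Unstimulated 7 of 13 higher calls were kept, and in CD3_CD28 against CD3 29 of 31 lower calls. Summed levels stayed within 1 SD of the group, except CD3_CD28 under median-of-ratios scaling (660.5 CPM). Over all genes, CD3_CD28 against CD3 had 2306 higher and 5643 lower as reported, 3548 higher under quantile normalization, and 3780 higher and 3652 lower under median-of-ratios scaling. Members lower in CD3_CD28_ICOS against Unstimulated numbered 3 under quantile normalization, and 2 with a pseudocount of 5, the filter at 10 CPM (31 members left), median-of-ratios scaling, the replicate block, no robust estimation, and without the ribosomal RNA gene. Members higher in CD3_CD28_ICOS against CD3 numbered 5 under quantile normalization, 4 under median-of-ratios scaling, 4 with the block and 1 with the 6 libraries alone.

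Leaving out each library in turn gave 7 to 16 members higher and 3 to 6 lower in CD3 against Unstimulated, 1 to 2 higher in CD3_CD28 against Unstimulated, 7 to 21 higher and 1 to 3 lower in CD3_CD28_ICOS against Unstimulated, 29 to 31 lower in CD3_CD28 against CD3, 32 to 33 higher in CD3_CD28_ICOS against CD3_CD28, and 1 to 11 higher in CD3_CD28_ICOS against CD3. Relative to the reference it gave 2 to 9 lower in CD3 against Unstimulated, 1 to 2 lower in CD3_CD28 against Unstimulated, 0 to 2 higher and 3 to 11 lower in CD3_CD28_ICOS against Unstimulated, 2 to 5 lower in CD3_CD28 against CD3, 1 to 2 higher in CD3_CD28_ICOS against CD3_CD28, and 0 to 3 lower in CD3_CD28_ICOS against CD3.

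Leaving out CD3 replicate 3 and CD3_CD28_ICOS replicate 2 together, chosen after seeing the data, gave 10 lower in CD3 against Unstimulated, 21 higher and 2 lower in CD3_CD28_ICOS against Unstimulated and 25 higher in CD3_CD28_ICOS against CD3. Relative to the reference it gave 9 lower in CD3 and 4 lower in CD3_CD28 against Unstimulated, 3 higher and 11 lower in CD3_CD28_ICOS against Unstimulated, 6 lower in CD3_CD28 against CD3, and 1 higher and 4 lower in CD3_CD28_ICOS against CD3. Leaving out the ribosomal RNA gene was also chosen after seeing the data.

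For ratios, a pseudocount of 0.1 gave 7 lower in CD3_CD28 against Unstimulated, 6 lower in CD3_CD28 against CD3 and 4 higher in CD3_CD28_ICOS against CD3_CD28. With Cd79a alone as the reference these were 1, 0 and 0. The 7-gene reference gave 11 lower and the block 9 lower in CD3 against Unstimulated. The cause of these changes was not tested.

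Over all 18 same-numbered pairs the correlation of deviations from the group means had a median of 0.0429, from −0.0719 to 0.332, with 6 over 0.1, and 18 of 36 comparisons were best with the own number. In CD3_CD28_ICOS against CD3, the comparison whose numbers pair, the replicate block changed no other count by over 1.5 times. Levels under about 0.1 CPM rest on a few reads.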

Other observations

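Plasma cell and class-switched immunoglobulin genes did not all follow the B cell members. Of 9 listed for the purpose, 8 were in the table and tested, and 7 were lower and 1 higher in CD3_CD28 against CD3 (background: 41.3% lower and 16.9% higher). Ighg1, the constant region of IgG1, was at 6.53, 2 and 4.34 CPM in the Unstimulated, 44.7, 44.3 and 72.3 CPM in the CD3, 1.54, 0.582 and 0.353 CPM in the CD3_CD28 and 190.1, 62.8 and 125 CPM in the CD3_CD28_ICOS libraries. It rose by 3.43 ± 0.43 (SE, adjusted p = 2.82e-05) in CD3 and by 4.54 ± 0.43 (SE, adjusted p = 4.78e-06) in CD3_CD28_ICOS against Unstimulated, with every stimulated library of those groups above every Unstimulated one. Igha, the constant region of IgA, was at 55.4, 14.9 and 28.9 CPM in Unstimulated, at most 1.32 CPM in CD3 and at most 0.959 CPM in CD3_CD28_ICOS, and was listed at 0 in all CD3_CD28 libraries. Jchain, which joins IgA and IgM into polymers, was at 79.4, 30.9 and 32.5 CPM in Unstimulated and at most 4.82 CPM elsewhere. Sdc1, a surface proteoglycan of plasma cells, was the gene called higher in CD3_CD28 than in CD3, by 0.70 ± 0.23 (SE, adjusted p = 0.017), at 3.4 to 3.91 beside 1.28 to 2.37 CPM.

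Other lists gave the following values beside the members. The summed level of 8 CD8 and natural killer markers was 72.2 to 109, 154 to 208, 63.2 to 119.6 and 106 to 236 CPM in the 4 groups, and Cd8a was at 46.6, 20.9 and 18.2 CPM in CD3_CD28_ICOS, with replicate 1 highest. The 8 erythroid and platelet markers summed to 104.1 to 196 CPM in Unstimulated libraries and to at most 5.04 CPM in any stimulated library. The 12 pancreatic acinar genes summed to 2364, 2076 and 455 CPM in the Unstimulated libraries and to at most 1.67 CPM in any stimulated library.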
